A study of Mus musculus with 12 samples.

Results

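The Zbtb genes encode zinc finger transcription factors that carry a BTB domain, and their RNA was followed in ATDC5 cells with and without knockdown of *Ddx5* and with and without inflammatory cytokines. The members were all protein-coding genes of the expression table whose symbol is Zbtb followed by a number and at most lower-case letters, which gave 41 of 46731 genes, and of 22186 protein-coding genes. They lie on 15 chromosomes. The symbol rule used no expression value, but the members were chosen with earlier results of these data known. *Zbtb8os* satisfies the rule although its product carries the archease domain and is not a BTB zinc finger protein, so counts without it are given where they differ. The table's own Pfam column lists a BTB domain for 23 members, for 6 of these also a C2H2 zinc finger, no domain for 17 and the archease family for *Zbtb8os*.

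BTB zinc finger proteins bind DNA through C-terminal C2H2 zinc fingers and pair with each other through the N-terminal BTB domain, which also recruits corepressors such as NCoR, SMRT and BCOR and, in some members, the ubiquitin ligase scaffold CUL3. Many act as repressors that fix cell fate: *Zbtb16* (PLZF) and *Zbtb7b* (ThPOK) are known from blood cells, *Zbtb17* (Miz-1) from its pairing with Myc, and *Zbtb33* (Kaiso) from binding methylated DNA. In the growth plate *Zbtb20* is known to act in hypertrophic chondrocytes. Ddx5 itself is a DEAD-box RNA helicase that takes part in transcription and splicing.

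RNA was sequenced from 12 libraries, 3 in each of 4 groups. ATDC5 is a mouse teratocarcinoma line that can be driven towards cartilage. Cells carried either a control vector (shRNA-NC, labelled wild type) or a hairpin against *Ddx5* (shRNA-*Ddx5*), both delivered by lentivirus under a U6 promoter and kept stable by puromycin, so that all 4 groups share the viral insertion and the selection. Each line was studied at 6 h without stimulation (in medium) or with IL-1β and TNF-α. A single hairpin was used and the lines were selected as stable lines. The study describes the replicates of its stimulated and unstimulated cells as biologically independent experiments. Whether they came from separate transductions is not given in the sources used here, and p-values measure the spread between these libraries. *Ddx5* was reduced to 32.3% of the control in medium and to 32.1% with cytokines, and every shRNA-*Ddx5* library lay below every shRNA-NC library.

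The libraries held 14119199 to 19276520 fragments on genes, and the Zbtb genes 15072 to 30454 of them. Levels are given as fragments per gene length and library denominator (FPKM), and differences as differences of log2(FPKM + 1), which makes changes of genes near 1 FPKM look smaller than they were. Of the 41 members, 36 reached 1 FPKM in at least 3 libraries and were tested with limma among 12368 genes, with Benjamini-Hochberg adjustment over all of them and a threshold of 0.05. Adjusted p-values below come from that fit unless another is named. *Zbtb8a* and *Zbtb37* passed that filter with no library of shRNA-*Ddx5* cells with cytokines at 1 FPKM. Libraries differed in how their values depended on GC content, with slopes from -0.27 (shRNA-NC library 3 in medium) to 0.23 (shRNA-*Ddx5* library 1 in medium) on the log2 scale per 10 percentage points, so the member calls that changed in a fit with this trend removed are given as well. Of the labelled cartilage identity, *Sox9* was present at 5.08 to 27.8 FPKM and *Col2a1* at 0.735 to 15.04 FPKM, whereas the matrix genes *Acan* and *Matn3* had at most 4 fragments in any library. *Ptprc* and *Cd3e* of blood cells, *Cdh5* of endothelium, *Epcam* of epithelium, *Snap25* of neurons and *Adipoq* of fat had no fragment.

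The DNA in front of the Zbtb genes is shown because the study followed Ddx5 on G-quadruplexes, 4-stranded folds of guanine-rich DNA. RefSeq windows from 250 bases before to 50 bases after the start of transcription (GRCm38.p6) were matched for 36 of the 41 members. The motif searched was 4 runs of at least 3 G separated by 1 to 7 bases, on either strand. The *Col2* promoter sequence that the study found to fold has shorter G runs and was placed farther upstream than these windows reach. This search would therefore not find it, and the matches are not of the same kind. A match was present for 15 of the 36 (41.7%), beside 20.4% of the 27025 genes of the whole window table, and the windows of the members had a median GC content of 64.0% beside 52.8%. Among tested genes the gap was smaller, with a match for 15 of 32 members (46.9%, median GC content 65.7%) beside 31.2% of 8927 genes (61.3%), and as only those 8927 of the 12368 tested genes had a window, nothing is read from it. Of the 12 members that fell in both media, described below, 9 had a window, and 5 of these held a match in the 250 bases before their start. Their stretches follow, written 5′ to 3′ on the strand of the gene, with the match in capitals and up to 15 bases on each side in lower case, where runs of C stand for runs of G on the other strand.
Zbtb1: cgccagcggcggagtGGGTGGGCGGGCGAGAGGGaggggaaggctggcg
Zbtb18: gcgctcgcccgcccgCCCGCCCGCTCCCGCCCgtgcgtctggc
Zbtb21: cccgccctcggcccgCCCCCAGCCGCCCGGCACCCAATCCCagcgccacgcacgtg
Zbtb39: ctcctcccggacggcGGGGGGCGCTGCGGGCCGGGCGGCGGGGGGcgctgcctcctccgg
Zbtb44: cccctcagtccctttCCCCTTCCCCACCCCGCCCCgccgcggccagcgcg
In *Zbtb1* (chr12:76370414-76370462) and *Zbtb39* (chr10:127739421-127739480) the G runs lay on the strand of the gene, 73 to 91 and 65 to 94 bases before the start. For *Zbtb18* (chr1:177442308-177442350), *Zbtb21* (chr16:97962662-97962717, minus strand) and *Zbtb44* (chr9:31030515-31030564) they lay on the other strand, 12 to 28, 55 to 80 and 95 to 114 bases before it. *Zbtb18* has 5 windows at different starts, and its stretch belongs to 1 of them. In medium 8 of the 15 tested members with a match fell and 8 of the 17 without, and with cytokines 6 of each did. The Kaiso site TCCTGCNA, searched on both strands, was found for *Zbtb18* and *Zbtb37* (5.56% of the 36, beside 5.71% of all genes of the table). Other motifs were looked at and are not reported. A match is a stretch of letters and was not tested for folding or binding.

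In shRNA-NC cells in medium the Zbtb genes were transcripts of low to middle abundance. Of the 41, 19 had a mean of at least 5 FPKM, 16 lay between 1 and 5 FPKM and 6 were below 1 FPKM. The median over the 36 tested members was 5.44 FPKM, against 8.78 FPKM over all tested genes. *Zbtb12* stood highest with 15.1 ± 3.57 FPKM (SD, n = 3), followed by *Zbtb17* with 13.3 ± 0.314 FPKM (SD, n = 3) and *Zbtb7a* with 12.4 ± 4.07 FPKM (SD, n = 3), and these neighbours in the order overlapped.

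**Figure D1:**
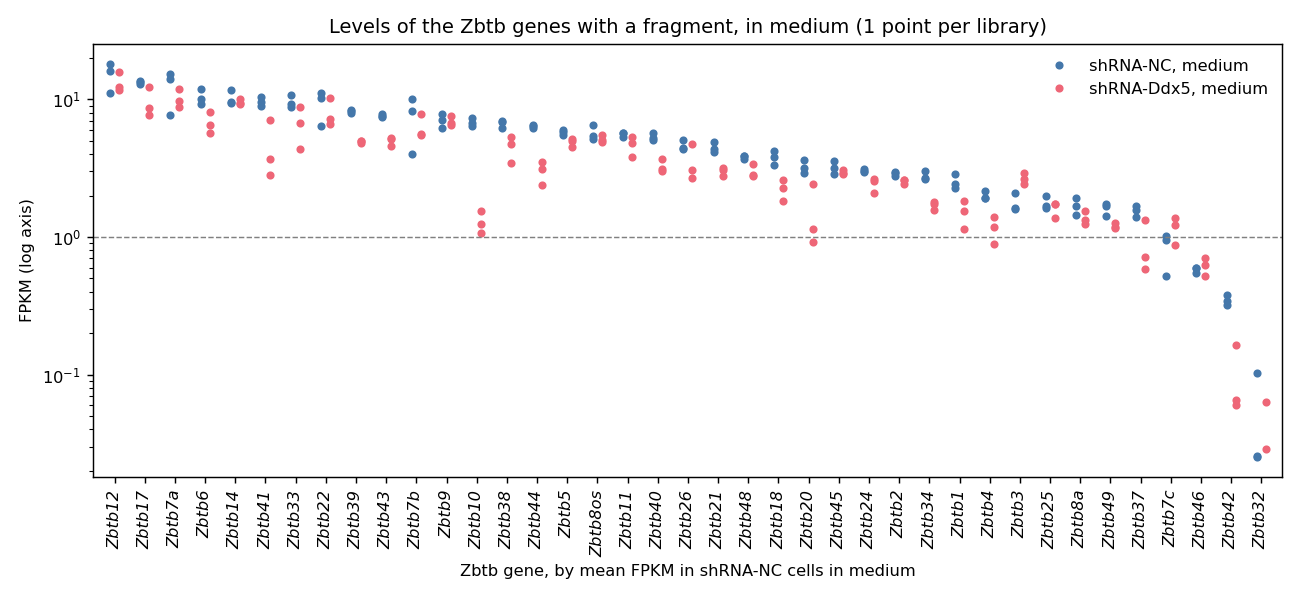
FPKM on a log axis of the 39 Zbtb genes with any fragment, in the 3 shRNA-NC and the 3 shRNA-*Ddx5* libraries in medium (1 point per library, in order of the shRNA-NC mean; the dashed line marks 1 FPKM; a library at 0 is not drawn). The shRNA-*Ddx5* points of *Zbtb10*, *Zbtb41* and *Zbtb44* lie below all their shRNA-NC points, with *Zbtb10* at 1.08 to 1.54 FPKM against 6.43 to 7.29 FPKM.

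Members at the bottom of the order included some regulators of blood cells. Others, *Zbtb7b* and *Zbtb1*, stood higher, at means of 7.47 and 2.53 FPKM in shRNA-NC cells in medium. *Zbtb16*, the PLZF gene of germ line and lymphoid cells, had no fragment in any library, and at its length 3 fragments would have been 0.0177 to 0.0243 FPKM. *Zbtb8b* likewise had none, with 3 fragments worth 0.0227 to 0.0311 FPKM. *Zbtb32*, a lymphocyte gene, had 0 to 7 fragments per library. *Zbtb46*, which marks dendritic cells, was at 0.517 to 0.881 FPKM in all 12 libraries (88 to 149 fragments). Its locus overlaps *Zgpat* and *Lime1* (means 9.39 and 9.23 FPKM) by 10482 and 2394 bases on the other strand. As strandedness of counting is not given in the sources used here, fragments there cannot be assigned. *Zbtb42*, a muscle gene, was at 0.379, 0.345 and 0.323 FPKM in shRNA-NC and at 0.0656, 0.164 and 0.0598 FPKM in shRNA-*Ddx5* libraries in medium, with 4 to 30 fragments per library. Its shRNA-*Ddx5* libraries in medium lay below all controls, and without the filter on low values its difference was -0.30 (standard error 0.06, adjusted p = 0.0062 in that fit).

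On knockdown in medium the family moved mostly downwards. Of the 36 tested members 19 (52.8%) fell and 1 (2.78%), *Zbtb3*, rose, while over all tested genes 21.7% fell and 25.3% rose. The median difference of the members was -0.31 against 0.03 over all genes, and 34 of 36 lay below 0 (94.4%, beside 47.4% of all genes). Summed over the 36 members, the level was 199.9 to 213.2 FPKM in the shRNA-NC libraries and 147.3 to 156.5 FPKM in the shRNA-*Ddx5* libraries. Scaling to the sum of fragments gave 24 falls and quantile normalization 17, the median staying below 0 at -0.39 and -0.24. The count of 20 changed members fell to 13 without shRNA-*Ddx5* library 3 and was 20 without shRNA-*Ddx5* library 2, which stood apart for several members of low GC content. In bulk libraries, fewer cells with a transcript and less of it per cell cannot be told apart.

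With cytokines most calls on knockdown were again falls. There 15 of the 36 (41.7%) fell and 1 (2.78%), *Zbtb7c*, rose, while over all tested genes 22.1% fell and 23.5% rose. Without *Zbtb8os* 14 of 35 fell. The median difference was -0.24 against 0.01 over all genes, and 27 of 36 lay below 0 (75%, beside 49.0% of all genes). Summed levels were 206.9 to 224.6 FPKM in shRNA-NC and 173.3 to 175.7 FPKM in shRNA-*Ddx5* libraries. Between the media, which share no library, 12 members fell in both, which is 63.2% of those that fell in medium and 80% of those that fell with cytokines. They were *Zbtb1*, *Zbtb6*, *Zbtb10*, *Zbtb18*, *Zbtb21*, *Zbtb33*, *Zbtb39*, *Zbtb40*, *Zbtb41*, *Zbtb43*, *Zbtb44* and *Zbtb48*. They make up 33.3% of the tested members, and 14.3% of all tested genes fell in both media. No member passed the threshold in opposite directions, and 29 of the 36 had differences of the same sign in both media.

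**Figure D2:**
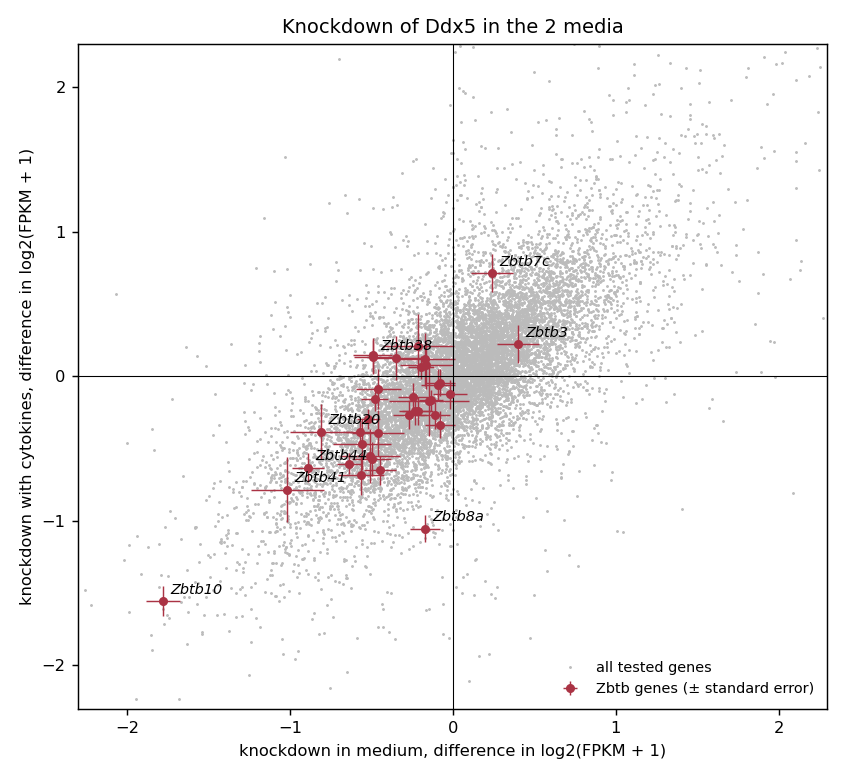
Difference in log2(FPKM + 1) between shRNA-*Ddx5* and shRNA-NC cells in medium (x axis) and with cytokines (y axis) for the 36 tested Zbtb genes (red points, bars are standard errors) and for all 12368 tested genes (grey, 79 of them beyond the axes). Most red points lie left of 0 and below 0; *Zbtb10* is farthest at -1.78 and -1.55, *Zbtb8a* lies low only on the y axis (-1.05) and *Zbtb7c* is above 0 on both axes.

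Summed levels of markers of cell states moved with the knockdown as well. The summed level of the 4 osteoblast markers (*Runx2*, *Sp7*, *Bglap*, *Ibsp*; 3 of them reached 1 FPKM in some library, and *Bglap* had at most 4 fragments) was 12.2 to 14.1 FPKM in shRNA-NC and 44.2 to 47.6 FPKM in shRNA-*Ddx5* cells in medium, and 4.87 to 6.83 and 11.9 to 12.5 FPKM with cytokines. The 7 chondrogenic markers, 3 of which reached 1 FPKM, summed to 39.1 to 44.3 FPKM and 26.0 to 29.8 FPKM in medium, and to 12.9 to 18.0 and 7.11 to 7.88 FPKM with cytokines. Among them *Sox9* had means of 27.5 and 24.1 FPKM in medium, a difference of -0.19 that did not pass the threshold. With cytokines its means were 8.76 and 5.40 FPKM, a difference of -0.61 that passed. The 3 adipocyte markers summed to at most 0.0239 FPKM and 1.02 to 1.31 FPKM in medium, and to 0.0597 to 0.738 and 1.27 to 2.03 FPKM with cytokines. Of these only *Fabp4* reached 1 FPKM, with 0 to 30 fragments per library, whereas *Plin1* had at most 1 fragment and *Adipoq* was at 0. The part of these shifts in the changes of the Zbtb genes was not tested.

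*Zbtb10* had the largest difference of the family on knockdown in both media. It encodes a repressor of GC-box promoters that has also been found at telomere repeats, and it lies on the plus strand of chr3:9315627-9350393 (GRCm39). In medium it was at 6.43, 6.75 and 7.29 FPKM in shRNA-NC and at 1.08, 1.54 and 1.24 FPKM in shRNA-*Ddx5* libraries. The groups were far apart, the knockdown mean being 18.8% of the control, a difference of -1.78 (standard error 0.10, adjusted p = 5.4e-07). With cytokines the shRNA-NC libraries held 7.92, 6.36 and 6.89 FPKM and the shRNA-*Ddx5* libraries 1.59, 1.73 and 1.89 FPKM. The knockdown mean was again low, at 24.6% of the control, a difference of -1.55 (standard error 0.10, adjusted p = 1.2e-06). The cytokines themselves left the gene at 0.04 in shRNA-NC and 0.26 in shRNA-*Ddx5* cells, neither past the threshold, and the latter passed with the GC trend removed, at 0.34 (adjusted p = 0.0020).

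Its fellow telomere and heterochromatin genes were *Zbtb40*, *Zbtb48* and *Zbtb24*, and 3 of these 4 members fell in each medium. Beside these 75% stood 21.7% and 22.1% of all genes, and 52.8% and 41.7% of the tested members. *Zbtb40*, near which bone density variants have been mapped, was at 5.10, 5.23 and 5.67 FPKM in shRNA-NC and at 3.68, 3.02 and 3.10 FPKM in shRNA-*Ddx5* libraries in medium. The groups did not overlap, a difference of -0.57 (standard error 0.09, adjusted p = 2.9e-04). With cytokines its values were 5.61, 5.82 and 6.16 FPKM against 4.55, 3.93 and 4.28 FPKM, a difference of -0.39 (standard error 0.09, adjusted p = 0.0034). *Zbtb48* encodes TZAP, which binds telomere repeats and trims long telomeres. Its levels were 3.86, 3.87 and 3.70 FPKM in shRNA-NC and 2.82, 3.41 and 2.78 FPKM in shRNA-*Ddx5* libraries in medium. With cytokines they were 4.25, 5.44 and 5.02 FPKM against 3.80, 4.35 and 3.57 FPKM, and the groups overlapped. Its falls were small at -0.27 (standard error 0.10, adjusted p = 0.047) in medium and -0.27 (standard error 0.10, adjusted p = 0.049) with cytokines, and they held in 4 and 3 of 12 fits that each left out 1 library. *Zbtb24*, mutated in a syndrome of immunodeficiency and centromere instability, stood at -0.23 and -0.24, not past the threshold, and passed it in both media with the GC trend removed, at -0.30 (adjusted p = 0.018) and -0.27 (adjusted p = 0.035).

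*Zbtb41*, *Zbtb44* and *Zbtb39*, which are less characterised, were also among the members that fell most in medium. For *Zbtb41* the libraries in medium held 9.003, 10.3 and 9.60 FPKM in shRNA-NC and 2.83, 7.08 and 3.70 FPKM in shRNA-*Ddx5* cells. The shRNA-*Ddx5* libraries lay below all controls but were widely spread, library 2 standing high. The difference was -1.02 (standard error 0.22, adjusted p = 0.0033), and -1.33 without that library. With cytokines it was at 10.4, 8.52 and 9.43 FPKM against 5.29, 4.06 and 5.96 FPKM, a difference of -0.78 (standard error 0.22, adjusted p = 0.014) that missed the threshold without shRNA-*Ddx5* library 2 with cytokines (-0.66). After removal of the GC trend its differences were -0.71 and -0.54, both still past the threshold.

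For *Zbtb44* the values in medium were 6.18, 6.53 and 6.45 FPKM in shRNA-NC and 2.39, 3.505 and 3.13 FPKM in shRNA-*Ddx5* libraries. The knockdown mean was 47.1% of the control and the difference -0.89 (standard error 0.10, adjusted p = 3.7e-05). With cytokines the libraries held 5.24, 4.75 and 5.01 FPKM and 2.84, 2.86 and 2.91 FPKM, the latter almost without spread, a difference of -0.63 (standard error 0.10, adjusted p = 3.7e-04). For *Zbtb39* the groups did not overlap in either medium. In medium it was at 8.36, 7.997 and 8.26 FPKM against 4.95, 4.79 and 4.99 FPKM, a difference of -0.64 (standard error 0.07, adjusted p = 5.1e-05). The cytokine groups repeated the gap with 9.36, 8.16 and 9.77 FPKM against 5.57, 5.77 and 5.54 FPKM, a difference of -0.60 (standard error 0.07, adjusted p = 7.3e-05).

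*Zbtb18* (RP58), a repressor needed in the developing cortex, was at 3.34, 3.79 and 4.23 FPKM in shRNA-NC and 1.83, 2.61 and 2.29 FPKM in shRNA-*Ddx5* libraries in medium. The groups did not overlap, with a difference of -0.56 (standard error 0.14, adjusted p = 0.0070). With cytokines the values were 5.28, 3.30 and 4.57 FPKM and 2.28, 2.16 and 2.51 FPKM, a difference of -0.68 (standard error 0.14, adjusted p = 0.0024). *Zbtb21* was at 4.16, 4.89 and 4.36 FPKM in shRNA-NC and 3.15, 3.08 and 2.78 FPKM in shRNA-*Ddx5* libraries in medium, a difference of -0.45 (standard error 0.10, adjusted p = 0.0036). The cytokine libraries held 7.99, 6.00 and 7.19 FPKM and 4.35, 4.07 and 3.92 FPKM, a difference of -0.65 (standard error 0.10, adjusted p = 3.4e-04). Its knockdown libraries lay below all controls of the same medium. *Zbtb6* was at 9.24, 10.003 and 11.97 FPKM against 5.66, 8.15 and 6.53 FPKM in medium. Its shRNA-NC libraries with cytokines were uneven, at 11.96, 6.73 and 9.12 FPKM against 5.89, 6.00 and 6.90 FPKM, and overlapped the knockdown. The differences were -0.56 (standard error 0.18, adjusted p = 0.023) and -0.47 (standard error 0.18, adjusted p = 0.048), the latter -0.29 without shRNA-NC library 1 with cytokines, and the calls held in 9 and 4 of 12 fits that each left out 1 library. *Zbtb6* has the lowest GC content of the tested members (38.8%), and with the GC trend removed neither difference passed the threshold (-0.20 and -0.21). Its neighbour *Zbtb26*, 1248 bases away on chromosome 2, stood at -0.35 in medium and 0.13 with cytokines, neither past the threshold, and the latter was 0.38 and past it once the trend was removed.

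*Zbtb1*, required for lymphoid development, and *Zbtb43*, the remaining members of the group that fell in both media, differed by -0.50 and -0.52 in medium and by -0.57 and -0.30 with cytokines. *Zbtb1* and *Zbtb25* lie head to head on chromosome 12 and overlap by 164 bases on opposite strands. The sources used here do not state whether counting used the strand, so fragments there cannot be assigned. *Zbtb25* stood at -0.08 and -0.04 and did not pass the threshold. *Zbtb34*, 18962 bases from *Zbtb43* on chromosome 2, fell by 0.48 in medium on the log2 scale and stood at -0.16 with cytokines. *Zbtb37* (-0.46) and *Zbtb49* (-0.24) also fell in medium, calls held in 9 and 3 of 12 fits that each left out 1 library. *Zbtb37* overlaps the abundant noncoding gene *Gas5* by 262 bases on the other strand. *Zbtb3*, the sole member that rose in medium, differed by 0.40 (standard error 0.13, adjusted p = 0.025), a call held in 8 of 12 such fits, and by 0.22 with cytokines, not past the threshold there.

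The 3 methyl-CpG binding members all fell in medium and 1 of them with cytokines. Over all genes 21.7% and 22.1% fell, and over the tested members 52.8% and 41.7%. *Zbtb33* (Kaiso) binds methylated CpG pairs and the sequence above and partners with p120-catenin (*Ctnnd1*). In medium it was at 8.86, 9.18 and 10.7 FPKM in shRNA-NC and 4.36, 8.85 and 6.74 FPKM in shRNA-*Ddx5* libraries. Library 2 of the knockdown nearly reached the controls. With cytokines the values were 10.6, 8.35 and 9.45 FPKM against 5.50, 6.08 and 6.82 FPKM. The differences were -0.51 (standard error 0.18, adjusted p = 0.040) and -0.55 (standard error 0.18, adjusted p = 0.029). They held in 5 and 8 of 12 fits that each left out 1 library, and the first was -0.27 without shRNA-*Ddx5* library 1. With the GC trend removed they were -0.25 and -0.33, both past the threshold.

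*Zbtb38*, which binds single methylated CpG sites, took another course. In medium its libraries held 6.15, 6.95 and 6.89 FPKM in shRNA-NC and 3.43, 5.31 and 4.76 FPKM in shRNA-*Ddx5* cells. It fell there, with a difference of -0.49 (standard error 0.12, adjusted p = 0.0051). With cytokines it was at 6.88, 7.24 and 6.98 FPKM in shRNA-NC and 8.05, 7.22 and 8.16 FPKM in shRNA-*Ddx5* cells, groups that overlapped, with a difference of 0.13 that was not past the threshold. *Zbtb4*, the third of these proteins, was at 1.93, 2.17 and 1.94 FPKM against 1.39, 0.884 and 1.17 FPKM in medium, a difference of -0.49 (standard error 0.12, adjusted p = 0.0060). With cytokines the groups overlapped, at 0.786, 1.18 and 1.27 FPKM against 1.24, 1.49 and 1.16 FPKM, with a difference of 0.15. The test of the difference between these effects in the media is given below.

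Of the 4 members tied to the cell cycle and the p53 pathway, 1 fell in medium (25%, beside 21.7% of all genes) and none with cytokines. With the GC trend removed all 4 fell in medium and 2 with cytokines, so the count depends on that step. *Zbtb17* (Miz-1), the Myc partner that controls *Cdkn1a* and *Cdkn2b*, was at 13.5, 13.5 and 13.0 FPKM in shRNA-NC and 12.4, 7.75 and 8.65 FPKM in shRNA-*Ddx5* libraries in medium. The difference was -0.46 (standard error 0.16, adjusted p = 0.035), which held in 7 of 12 fits that each left out 1 library. With cytokines the values were 13.5, 18.9 and 19.7 FPKM against 13.2, 13.5 and 11.8 FPKM, a difference of -0.39 that did not pass. With the trend removed it was -0.49 (adjusted p = 0.0015) in medium and -0.47 (adjusted p = 0.0021) with cytokines. *Zbtb2*, *Zbtb5* and *Zbtb7a* differed by -0.13, -0.19 and -0.21 in medium, none past the threshold, and by -0.20 (adjusted p = 0.025), -0.26 (adjusted p = 0.025) and -0.24 (adjusted p = 0.040) with the trend removed. *Zbtb2* also passed with cytokines in that fit, at -0.18 (adjusted p = 0.037).

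Of 4 neural and developmental members 3 were tested, and 2 (*Zbtb18* and *Zbtb20*) fell in medium and 1 (*Zbtb18*) with cytokines. Those 66.7% and 33.3% stand beside 21.7% and 22.1% of all genes, and 52.8% and 41.7% of the tested members. *Zbtb20* is the developmental regulator known from hippocampus, liver and growth plate. Its libraries in medium were at 2.90, 3.64 and 3.17 FPKM in shRNA-NC and 0.913, 2.42 and 1.13 FPKM in shRNA-*Ddx5* cells. All knockdown libraries were below the controls, library 2 being closest to them. The difference was -0.81 (standard error 0.19, adjusted p = 0.0048). With cytokines the levels were 1.09, 1.43 and 1.66 FPKM and 0.819, 0.667 and 1.02 FPKM, again without overlap, but the difference of -0.38 did not pass. The long *Zbtb20* locus contains the pseudogene *Ndufs5-ps* on the same strand (mean 74.8 FPKM over 500 bases), and fragments near it could be assigned to either. Of the 5 regulators of blood cells 2 were tested, and 1 (*Zbtb1*) fell in each medium (50%, beside the same shares of all genes and of the tested members). *Zbtb7b* (ThPOK), which directs T cells to the CD4 lineage, was at 10.1, 8.25 and 4.04 FPKM against 7.83, 5.52 and 5.63 FPKM in medium. The control group was spread by its low library 3. With cytokines it was at 5.29, 7.61 and 7.33 FPKM against 5.95, 5.70 and 5.82 FPKM, and neither difference (-0.15 and -0.17) passed the threshold.

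*Zbtb8a*, *Zbtb14*, *Zbtb8os* and *Zbtb7c* passed the threshold on knockdown with cytokines and not in medium; the test of the difference between the media passed for *Zbtb8a*, and for *Zbtb7c* as well with the GC trend removed. *Zbtb14* (ZF5), known as a repressor of *Myc*, was level in medium at 9.41, 9.63 and 11.8 FPKM against 9.33, 9.48 and 10.1 FPKM, with overlapping groups (-0.08). With cytokines it was at 8.70, 8.46 and 9.17 FPKM against 7.43, 6.19 and 6.67 FPKM, a difference of -0.34 (standard error 0.09, adjusted p = 0.013) that missed the threshold without shRNA-*Ddx5* library 2 with cytokines (-0.28). *Zbtb8os*, the archease gene, differed by -0.27 with cytokines, a call held in 8 of 12 fits that each left out 1 library.

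*Zbtb8a*, a less characterised member on the minus strand of chr4:129247425-129271821, was at 1.44, 1.68 and 1.91 FPKM in shRNA-NC and 1.55, 1.24 and 1.32 FPKM in shRNA-*Ddx5* libraries in medium. These groups overlapped and the difference of -0.17 did not pass, whereas with the GC trend removed it was -0.25 (adjusted p = 0.027). With cytokines the values were 2.79, 2.75 and 2.60 FPKM in shRNA-NC and 0.705, 0.790 and 0.883 FPKM in shRNA-*Ddx5* libraries. The knockdown mean was 29.2% of the control, with no overlap and a difference of -1.05 (standard error 0.09, adjusted p = 8.6e-06). *Zbtb7c* (Kr-pok), a regulator of lipid and amino acid metabolism genes, went the other way. In medium it was at 0.951, 1.02 and 0.519 FPKM against 1.37, 0.874 and 1.21 FPKM, groups that overlapped (0.24). With cytokines it was at 1.5997, 2.00 and 2.05 FPKM against 3.503, 3.84 and 3.83 FPKM, a difference of 0.72 (standard error 0.13, adjusted p = 9.7e-04).

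**Figure D3:**
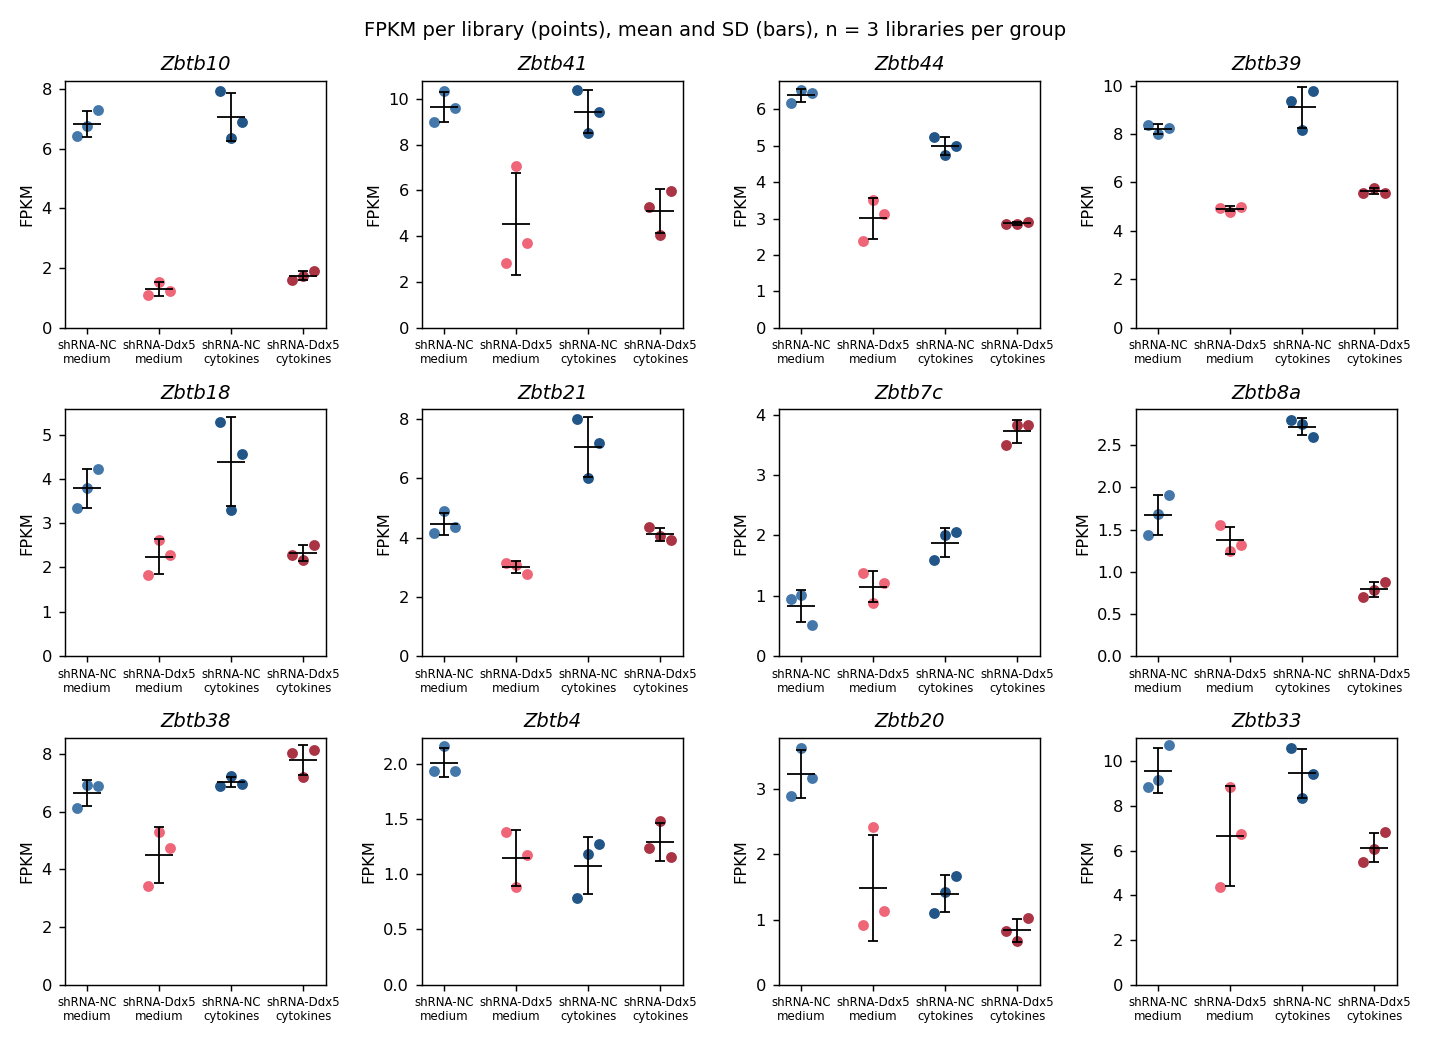
FPKM of 12 Zbtb genes in each of the 12 libraries (points), with the mean and SD of each group (bars, n = 3). The shRNA-*Ddx5* points of *Zbtb10*, *Zbtb44*, *Zbtb39* and *Zbtb21* are below the shRNA-NC points in both media, *Zbtb7c* is highest in shRNA-*Ddx5* cells with cytokines (up to 3.84 FPKM), *Zbtb8a* is highest in shRNA-NC cells with cytokines (2.60 to 2.79 FPKM), and library 2 of shRNA-*Ddx5* cells in medium is the highest of its group for *Zbtb41*, *Zbtb20* and *Zbtb33*.

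Fewer members were called in the cytokine contrasts than in the knockdown contrasts. In shRNA-NC cells 4 of 36 members rose and 3 fell (11.1% and 8.33%), beside 18.6% and 15.2% of all genes, with a median of 0.04 against 0.02. Scaling to the sum of fragments turned these calls to 3 up and 7 down and the median to -0.04, and removal of the GC trend also gave 3 up and 7 down. In shRNA-*Ddx5* cells 8 rose and 2 fell (22.2% and 5.56%), beside 13.5% and 13.5% of all genes, with a median of 0.08 against 0.00. The count of 10 dropped to 6 without shRNA-*Ddx5* library 3 in medium and to 5 without shRNA-*Ddx5* library 1 with cytokines. These contrasts share libraries with the knockdown contrasts, and values are therefore given side by side only.

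Both lines raised *Zbtb7c* and *Zbtb21*. From the values above, *Zbtb7c* rose by 0.66 (standard error 0.13, adjusted p = 0.0024) in shRNA-NC and by 1.14 (standard error 0.13, adjusted p = 5.0e-05) in shRNA-*Ddx5* cells, the largest rise among the members in these contrasts. *Zbtb21* rose by 0.55 (standard error 0.10, adjusted p = 0.0015) and by 0.35 (standard error 0.10, adjusted p = 0.023), the latter held in 9 of 12 fits that each left out 1 library. *Zbtb48* stood at 0.29 and 0.29, past the threshold in shRNA-NC cells and holding there in 4 of 12 fits that each left out 1 library, and it was lost with the GC trend removed, at 0.21 (adjusted p = 0.16). *Zbtb20* fell in shRNA-NC cells (-0.83, standard error 0.19, adjusted p = 0.0065) and stood at -0.40 in shRNA-*Ddx5* cells, not past the threshold. *Zbtb4* fell in shRNA-NC cells (-0.54, standard error 0.12, adjusted p = 0.0053) and was at 0.10 in shRNA-*Ddx5* cells. *Zbtb44* fell in shRNA-NC cells (-0.30, standard error 0.10, adjusted p = 0.035), a call held in 4 of 12 fits that each left out 1 library, and was at -0.04 in shRNA-*Ddx5* cells. *Zbtb8a* rose by 0.48 (standard error 0.09, adjusted p = 0.0026) in shRNA-NC cells and fell in shRNA-*Ddx5* cells (-0.40, standard error 0.09, adjusted p = 0.0081).

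Among the members called in shRNA-*Ddx5* cells were regulators of growth. *Zbtb7a* (LRF), a repressor with roles in proliferation and in blood cells, was at 11.995, 9.75 and 8.85 FPKM in medium and 17.7, 17.3 and 16.6 FPKM with cytokines in those cells. It rose without overlap, by 0.71 (standard error 0.22, adjusted p = 0.033), which held in 7 of 12 fits that each left out 1 library. In shRNA-NC cells it was at 15.3, 14.0 and 7.71 FPKM and 11.3, 16.5 and 16.9 FPKM, library 3 in medium being low, with a difference of 0.29 that did not pass. *Zbtb5*, a repressor of *Cdkn1a*, was at 5.01, 4.51 and 5.17 FPKM in medium and 7.26, 7.01 and 6.63 FPKM with cytokines in shRNA-*Ddx5* cells, a rise of 0.44 (standard error 0.08, adjusted p = 0.0018). Its shRNA-NC libraries were at 5.47, 5.77 and 5.96 FPKM and 7.02, 6.05 and 6.82 FPKM (0.18, not past the threshold). *Zbtb38* rose by 0.69 (standard error 0.12, adjusted p = 0.0011) in shRNA-*Ddx5* cells and stood at 0.07 in shRNA-NC cells. *Zbtb14* fell in shRNA-*Ddx5* cells (-0.46, standard error 0.09, adjusted p = 0.0038) and stood at -0.20 in shRNA-NC cells. The smaller rises in shRNA-*Ddx5* cells were those of *Zbtb40* (0.30), *Zbtb43* (0.26) and *Zbtb34* (0.25), which held in 8, 9 and 3 of 12 fits that each left out 1 library.

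**Figure D4:**
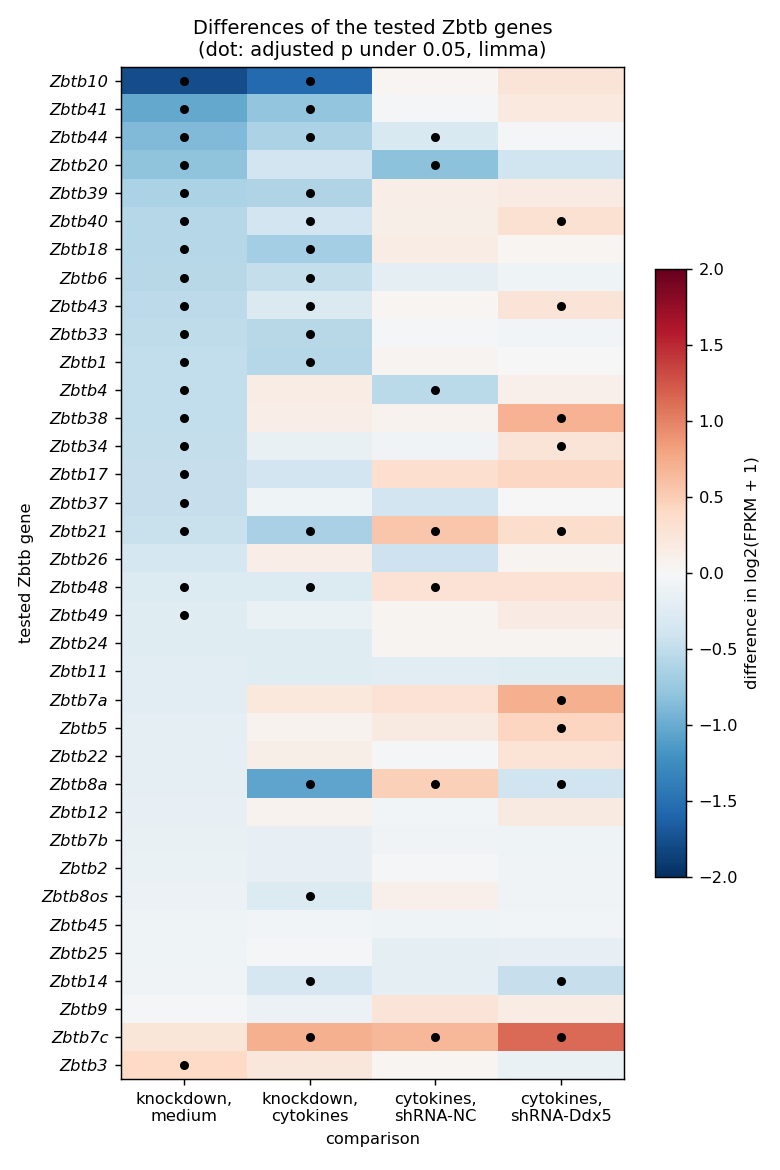
Difference in log2(FPKM + 1) of the 36 tested Zbtb genes (rows, ordered by the knockdown in medium) in the knockdown contrasts and the cytokine contrasts (columns); red is higher and blue lower, and a dot marks an adjusted p under 0.05. The knockdown columns hold 19 and 15 dots on blue cells, and the cytokine columns hold 7 and 10 dots in all.

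The knockdown effect differed between the media for 3 of the 36 members, 2 with a higher and 1 with a lower effect with cytokines (5.56% and 2.78%), beside 3.46% and 4.75% of all genes. *Zbtb8a* had the lower effect, at -0.88 (standard error 0.13, adjusted p = 0.0023) for the effect with cytokines minus that in medium. *Zbtb4* had 0.64 (standard error 0.17, adjusted p = 0.042) and *Zbtb38* 0.62 (standard error 0.17, adjusted p = 0.041). The calls for *Zbtb4* and *Zbtb38* held in 3 and 2 of 12 fits that each left out 1 library, whereas that of *Zbtb8a* held in 12. The count of 3 became 1 when any of shRNA-NC libraries 1 or 2 or shRNA-*Ddx5* library 3 in medium, shRNA-NC library 1 or any shRNA-*Ddx5* library with cytokines was left out. For *Zbtb10* the difference of effects was 0.23, for *Zbtb20* 0.43 and for *Zbtb7c* 0.48, none past the threshold. With the GC trend removed 7 members passed, the 3 above and *Zbtb7c* (0.43), *Zbtb26* (0.40), *Zbtb34* (0.37) and *Zbtb43* (0.29), beside 7.52% of all genes up and 8.21% down.

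Of the 36 tested members 10 passed the threshold in no comparison: *Zbtb2*, *Zbtb7b*, *Zbtb9*, *Zbtb11*, *Zbtb12*, *Zbtb22*, *Zbtb24*, *Zbtb25*, *Zbtb26* and *Zbtb45*. *Zbtb12*, the member at the top of the order, and *Zbtb45* differed by -0.16 and -0.09 on knockdown in medium and by 0.08 and -0.06 with cytokines.

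Removal of the GC trend kept 53 of the 56 member calls, with no change of direction, lost 3 (*Zbtb6* on knockdown in both media and *Zbtb48* with cytokines in shRNA-NC cells) and added 18. In that fit 23 of the 36 members fell and 1 rose on knockdown in medium, beside 27.2% and 28.9% of 11630 genes with a GC value, and 17 fell and 2 rose with cytokines, beside 26.5% and 27.8%. The calls added in shRNA-NC cells with cytokines were those of *Zbtb26* (-0.32), *Zbtb37* (-0.33), *Zbtb14* (-0.21) and *Zbtb25* (-0.20), all falls. The other added calls are given with their genes above. Of the 10 members that passed in no comparison, *Zbtb2*, *Zbtb24*, *Zbtb25* and *Zbtb26* thus passed in at least 1 with the trend removed.

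Related genes were counted for comparison. BTB zinc finger genes under other symbols numbered 8, of which 6 were tested: none rose and 2 fell in medium, and none rose and 4 fell with cytokines (medians -0.16 and -0.38), in the comparisons where 21.7% and 22.1% of all genes fell. *Zfp131* differed by -0.66 in medium and -0.89 with cytokines, *Mynn* by -0.60 in medium, and *Bcl6*, the germinal centre repressor, by -0.48 with cytokines. Zinc finger genes with a Zfp symbol, which mostly lack a BTB domain (*Zfp131* is in both lists), fell in 164 of 280 cases in medium (58.6%, median -0.38) and in 142 with cytokines (50.7%, median -0.33), while 10 and 13 rose. Genes with a BTB domain and no zinc finger (Klhl, Kbtbd and Btbd symbols) fell in 14 of 35 cases in medium (40.0%, median -0.10) and in 13 with cytokines (37.1%, median -0.16), while 5 and 3 rose. These shares were not tested against that of the Zbtb genes.

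Of 23 corepressors and partners of BTB zinc finger proteins, 4 rose and 5 fell in medium and 3 rose and 4 fell with cytokines (medians -0.11 and -0.04). The shares of 17.4% and 21.7% in medium lay below or at the 25.3% and 21.7% of all genes, and those of 13.0% and 17.4% with cytokines below the 23.5% and 22.1%. *Hdac1*, a histone deacetylase, rose by 0.56 and 0.64, and *Ctbp1*, a corepressor, by 0.62 and 0.44. *Tbl1xr1*, a subunit of the NCoR complex, stood at -0.88 and -0.38, and *Bcor* at -0.47 and -0.30, all past the threshold. With cytokines in shRNA-NC cells 1 of the 23 rose and 7 fell (4.35% and 30.4%, beside 18.6% and 15.2% of all genes). In shRNA-*Ddx5* cells 1 rose and 4 fell (4.35% and 17.4%, beside 13.5% and 13.5%).

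Of 11 genes listed from general knowledge as regulated by BTB zinc finger proteins 10 were tested. The list was drawn up with earlier results of these data known. It holds *Col1a1*, *Col1a2* and *Sox9*, which the study itself reports on. On knockdown in medium 4 rose and 1 fell (40% and 10%, beside 25.3% and 21.7% of all genes, median 0.18). On knockdown with cytokines 6 rose and 4 fell (60% and 40%, beside 23.5% and 22.1%, median 0.40). *Col1a1* and *Col1a2*, the chains of type I collagen, rose by 2.45 and 1.80 in medium and by 3.00 and 2.07 with cytokines. *Cdkn1a*, the p21 gene, known to be controlled by *Zbtb5* and *Zbtb17*, was at -0.43 in medium and -1.58 with cytokines, and both falls passed. With cytokines in shRNA-NC cells 3 of the 10 rose and 3 fell (30% and 30%, beside 18.6% and 15.2% of all genes). In shRNA-*Ddx5* cells 1 rose and 1 fell (10% and 10%, beside 13.5% and 13.5%). Whether any of these changes followed from a change in a Zbtb gene was not tested.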

How the data were processed

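Poly(A) RNA of 12 ATDC5 libraries was sequenced by the authors. The authors counted fragments per gene with featureCounts and deposited FPKM for 46731 genes; per the labels, the submitters' processing notes name HISAT2 2.0.5, featureCounts 1.5.0-p3 and DESeq2 1.20.0. Those notes name mm10, whereas the coordinates deposited with the FPKM follow GRCm39 and are printed as such. Strandedness of counting is not given in the sources used here. Multiplying FPKM by gene length and by a denominator recovered for each library returned whole fragments (100% of values within 0.1 of a whole number). Library denominators tracked median-of-ratios size factors, so libraries were already scaled to each other as deposited.

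Groups were taken from the sample labels. Values were analysed as log2(FPKM + 1) with limma 3.58.1 in R 4.3.3 (lmFit, contrasts.fit, eBayes with trend), with 4 group means, no covariate and all 12 libraries, for 12368 genes with at least 1 FPKM in at least 3 libraries. Benjamini-Hochberg adjustment ran over those genes. The members and gene lists were chosen with earlier results of these data known. Values in every library were given for the 8 members with the largest difference among those past the threshold in each pairwise comparison, for those past it in the interaction, and for *Zbtb7b*, *Zbtb16*, *Zbtb17*, *Zbtb20* and *Zbtb33*; other genes named were chosen after their values were seen or from the lists. The alternatives were a pseudocount of 0.1 FPKM, other filters, quantile normalization, scaling to the sum of fragments, voom weights, the replicate number as a block, 2-group fits, eBayes without trend, and each library left out; removal of a lowess trend on GC content (span 0.3) was added after the data were seen. Floors of 3 fragments cover counting error only. Plots used matplotlib 3.10.9 (Python 3.11.15).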

Additional observations from a re-analysis of the deposited data

Results flagged for a closer look

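The effect of the *Ddx5* knockdown differed between the media, by limma's test of the interaction with adjustment over all 12368 genes, for 3 members. The effect with cytokines was higher for 5.56% and lower for 2.78% of the 36 tested members, beside 3.46% and 4.75% of all genes. For *Zbtb8a* the effect with cytokines minus that in medium was -0.88 on the log2 scale. With cytokines shRNA-NC libraries stood at 2.60 to 2.79 FPKM and shRNA-*Ddx5* libraries at 0.705 to 0.883 FPKM, and in medium the groups overlapped. For *Zbtb38* it was 0.62 and for *Zbtb4* 0.64, with a fall on knockdown in medium and values above 0 with cytokines that did not pass the threshold. The interaction calls of *Zbtb38* and *Zbtb4* held in 2 and 3 of 12 fits that each left out 1 library. Both were lost with the replicate number as a block. No cause was tested.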

How the results depend on the processing

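The count of changed members kept within 1.5 times its value in most alternatives. For the knockdown in medium (20) it ranged from 13 to 21 with 1 library left out and for that with cytokines (16) from 12 to 18. For the cytokines it ranged from 5 to 10 in shRNA-NC cells (7) and from 5 to 12 in shRNA-*Ddx5* cells (10), and the former was 4 with a filter of 1 FPKM in all libraries. The interaction count of 3 ranged from 1 to 4 with 1 library left out, was 1 with a pseudocount of 0.1, without a filter, with 1 FPKM in all libraries and with the replicate block, and was 7 with the GC trend removed. The cause was not tested. Of 56 member calls 34 passed under every alternative in which they had a value, and none of the 56 changed direction. The filter of 1 FPKM in all libraries tested 31 members and gave no value for 11 of those 34 calls, and the fit of 2 groups none for the interaction. With 1 library left out, 22 were lost in at least 1 fit, from 4 (without shRNA-NC library 1 with cytokines) to 16 (without shRNA-*Ddx5* library 3 in medium).

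Deviations of the libraries from their group means were compared between the shRNA-NC and shRNA-*Ddx5* groups. In medium same-numbered libraries correlated at a mean of 0.27 (lowest pair 0.043) and other-numbered ones at -0.14. With cytokines the means were 0.0051 and -0.0023. The numbers were not taken to pair samples, and whether the medium groups were paired was not tested. With the replicate number as a block the counts were 18, 15, 6 and 10 for the comparisons in the order above. Depth limits the members with few fragments, such as *Zbtb8a* with 26 to 115 and *Zbtb42* with 4 to 30 per library.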
